A study of Mus musculus with 6 samples.

Results

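The basal and mesenchymal transcription factors described here are 10 genes chosen by name: Trp63, Sox10, Snai1, Snai2, Zeb1, Zeb2, Twist1, Twist2, Prrx1 and Tcf21. Of these, 9 were read by a probe set that the platform annotation assigns to that gene alone, each by 1 probe set, out of 22180 genes measured in this way. Zeb2 was not analysed here, because each of its 2 probe sets also carries another symbol. Total RNA was measured on Affymetrix arrays from the whole inguinal mammary gland of C57BL/6J mice aged 4 weeks, around the onset of puberty. The stromal knockout group (3 mice, 1 array each) was Dermo1Cre/Mt1-mmp(fl/fl), in which Cre from the Dermo1 locus, now named Twist2, deletes the floxed gene of the membrane-anchored metalloproteinase Mt1-mmp, now Mmp14. The wild-type group (3 mice, 1 array each) was Mt1-mmp(+/+) and came from the same litters, per the series' design text. The comparison asks what changes in the whole gland when stromal cells lose Mmp14. Dermo1-Cre acts in mesenchymal cells. No group has Cre without the floxed allele, so what Cre or its insertion does and what the loss of Mmp14 does cannot be told apart.

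The mammary duct has an inner luminal layer and an outer basal, myoepithelial layer, and it grows into a fat pad of adipocytes and fibroblasts. Trp63, Sox10 and Snai2 are known as regulators of basal cells and of progenitor states in this epithelium. Snai1, Snai2, Zeb1, Zeb2, Twist1 and Twist2 drive the epithelial to mesenchymal transition (EMT), in which epithelial cells lose their junctions, and several of them are also expressed by ordinary fibroblasts. Prrx1 and Tcf21 mark mesenchymal lineages, among them fibroblasts and adipocyte progenitors.

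Values are log2 signals, differences are knockout minus wild type on that scale, and ± is the SD of 3 arrays for a level and the moderated standard error (SE) for a difference. Mmp14 read 8.57, 8.55 and 8.75 in knockout glands, against 11.18, 10.55 and 10.90 in wild-type glands, a fall of 2.25 ± 0.17 with no overlap (limma adjusted p = 0.000454). The sources used here do not say whether the probes lie in the floxed part. Pearson correlations over the 22180 genes were 0.990 to 0.992 within groups and 0.975 to 0.983 between groups. Wild type 1 stood apart in 14 skeletal muscle genes, whose mean lay 1.11 above the wild-type average on that array. Krt14, a defining basal keratin, read 2.35 ± 0.14 in knockout glands and 5.49 ± 0.32 in wild-type glands. The knockout value lies under 2.71, the level below which 33.3% of gene means fall, where sizes can be read only as bounds. The value table gives no detection call.

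Of the 9 transcription factor genes, 5 fell in the knockout: Sox10, Snai2, Twist1, Prrx1 and Zeb1. None rose, at an unadjusted p under 0.05 either, and Snai1, Twist2, Trp63 and Tcf21 did not pass the test (limma, adjusted p under 0.05 over all 22180 genes). Among all genes, 7.20% fell and 5.05% rose by the same rule. In 6 of the 9, the 5 genes that fell and Snai1, all knockout arrays lay below all wild-type arrays, against 15.4% of all genes. The median difference of the 9 was -0.64, beside 0.03 over all genes. In whole tissue, fewer cells of a type and less RNA per cell cannot be told apart. The number that fell was 2 without wild type 1 or knockout 2 and 3 without knockout 1. Centring each array on its median moved the median difference of all genes to 0.22 and turned the split of calls over all genes from 1121 rises and 1596 falls to 3155 rises and 1178 falls. On the centred values Sox10, Snai2, Twist1 and Prrx1 fell too, by 1.37, 0.70, 0.55 and 0.45, and Zeb1 did not pass.

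**Figure D1:**
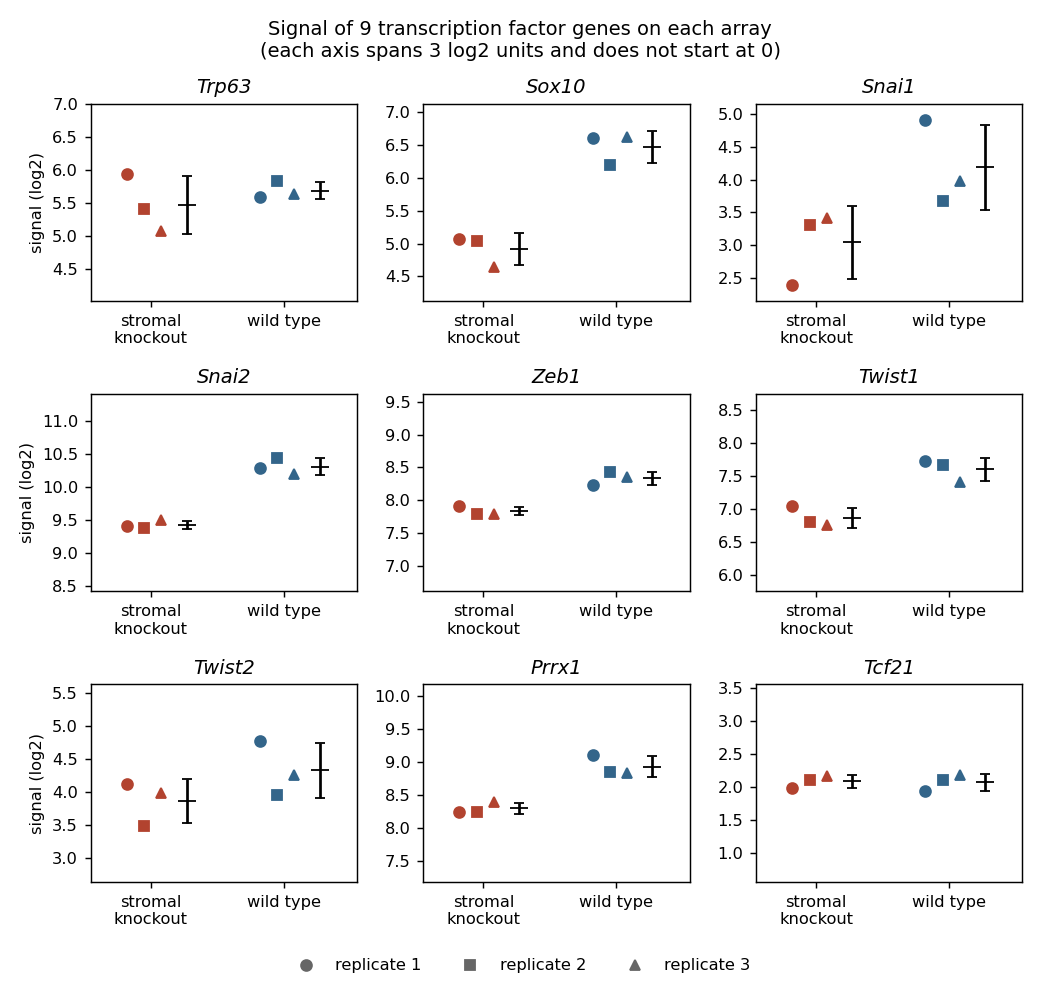
Signal (log2) of 9 transcription factor genes on each array, with knockout arrays left in red and wild-type arrays right in blue. Symbols stand for replicates, and black bars give the mean ± SD of 3 arrays. Every axis spans 3 log2 units and does not start at 0. Knockout arrays lie below all wild-type arrays for Sox10, Snai1, Snai2, Zeb1, Twist1 and Prrx1, and the groups overlap for Trp63, Twist2 and Tcf21.

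Of the basal regulators, Sox10 and Snai2 fell and Trp63 did not pass. Sox10, an SRY-box factor of mammary progenitors and of nerve Schwann cells, read 5.08, 5.04 and 4.64 in knockout glands, against 6.61, 6.19 and 6.61 in wild-type glands. It fell by 1.55 ± 0.18 to 34.1% of the wild-type level (95% interval of the difference -1.96 to -1.15, limma adjusted p = 0.00199), the largest fall among the 9. The groups were separated by more than the spread within either of them. Trp63, which encodes p63, the factor that maintains basal layers of many epithelia, read 5.94, 5.40 and 5.08 in knockout glands, against 5.60, 5.83 and 5.64 in wild-type glands. Knockout 1 gave the highest value of all 6 arrays and knockout 3 the lowest. The Trp63 difference was -0.21 ± 0.21 (95% interval -0.71 to 0.28, limma adjusted p = 0.584), so both a modest fall and a small rise lie within its error.

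Markers of the cell types that could carry these factors moved as follows. Of 11 measured basal and myoepithelial markers, 8 fell and none rose (0 also at an unadjusted p under 0.05), with a median of -1.40. Their summed signal was 11.27 to 11.65 (log2) in knockout glands and 12.18 to 12.36 in wild-type glands. Of 12 luminal markers, 11 fell, with a median of -1.93 and sums of 10.45 to 10.81 in knockout glands and 12.20 to 12.36 in wild-type glands. None of these 23 lay under 2.71 on average over the 6 arrays. For each array, Trp63 minus the mean of the basal markers was set to a wild-type average of 0. It then read 1.83, 1.34 and 0.62 in knockout glands, against -0.14, 0.36 and -0.21 in wild-type glands. These groups did not overlap, and an exact two-sided permutation test gave p = 0.1, its minimum with 3 arrays a group. Trp63 minus Sox10 differed by 1.34 between the groups with no overlap (exact permutation p = 0.1). Sox10 minus the basal markers differed by -0.07, with overlapping groups (exact permutation p = 1.0). There were 10 such within-array comparisons in all, chosen after values had been seen, and the lowest p adjusted over them was 0.25. Snai2, also named as a basal regulator, was not set against the basal markers. A higher value relative to these markers is therefore not shown to be particular to Trp63.

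Sox10 is also the defining factor of Schwann cells, which ensheathe the nerves of the gland. Of 11 measured Schwann cell markers, 2 fell and 1 rose, and the median was 0.12. Their summed signal was 10.42 to 10.49 (log2) in knockout glands and 10.62 to 10.84 in wild-type glands. The myelin genes Mbp and Mag differed by 0.22 ± 0.17 (limma adjusted p = 0.487) and 0.12 ± 0.26 (adjusted p = 0.819). The rise was S100b, a calcium-binding protein (0.89 ± 0.17, limma adjusted p = 0.0162), and it was lost without wild type 1. The falls were Erbb3, a neuregulin receptor that epithelium also expresses (-1.62 ± 0.17), and Egr2, which is also an early response gene (-2.78 ± 0.25). Sox10 minus the mean of these markers differed by -1.34, with all knockout arrays below all wild-type arrays (exact permutation p = 0.1, the smallest possible).

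**Figure D2:**
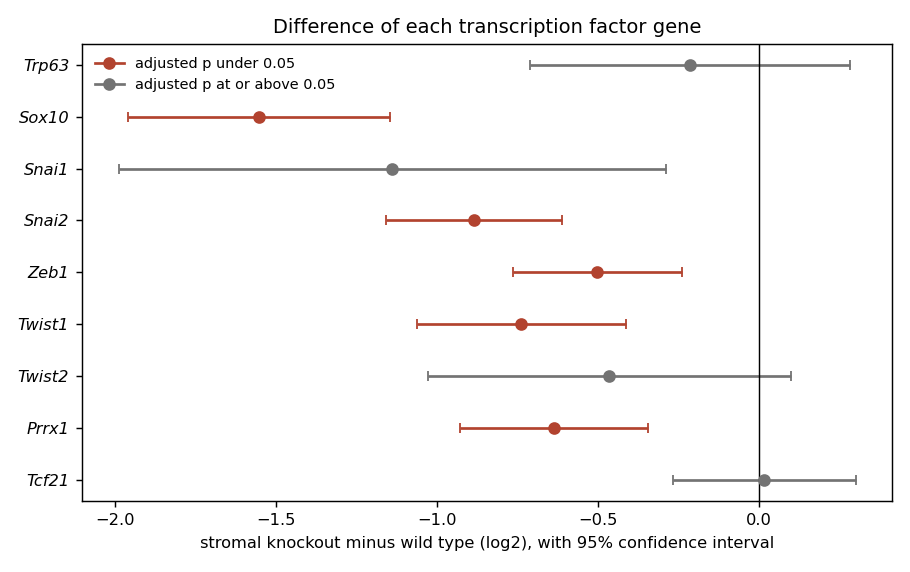
Difference (knockout minus wild type, log2) of each of the 9 genes with its 95% confidence interval from limma, 3 arrays per group. Red marks an adjusted p under 0.05. The intervals of Sox10, Snai1, Snai2, Zeb1, Twist1 and Prrx1 lie below 0, and those of Trp63, Twist2 and Tcf21 span it.

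The Snail genes encode zinc-finger repressors that bind the E-box CAGGTG. Snai2, or Slug, read 9.41, 9.38 and 9.50 in knockout glands, against 10.29, 10.45 and 10.20 in wild-type glands. It fell by 0.88 ± 0.12 (limma adjusted p = 0.00380), to 54.2% of wild type, and the arrays of each group lay close together. Snai1, or Snail, read 2.40, 3.30 and 3.42 in knockout glands, against 4.90, 3.67 and 3.97 in wild-type glands. All knockout arrays were below all wild-type arrays, but the spread within groups was wide. The Snai1 difference was -1.14 ± 0.37 (95% interval -1.99 to -0.29, limma adjusted p = 0.0879), and it did not pass. Wild type 1, the array with the high muscle signal, was the highest for Snai1, and without it the difference was -0.78. Snai2 minus Snai1 differed by 0.26 between the groups, which overlapped (exact permutation p = 0.7), so the 2 genes were not shown to differ in response.

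The region before the Snai1 start is shown because it holds the E-box that Snail itself can bind. In human cells Snail has been reported to act on its own promoter in this way. The 250 bases, from RefSeq (GRCm38.p6), are chr2:167537945-167538194 (plus strand), written 5′ to 3′ in the direction of the gene with the E-box in capitals.
Snai1: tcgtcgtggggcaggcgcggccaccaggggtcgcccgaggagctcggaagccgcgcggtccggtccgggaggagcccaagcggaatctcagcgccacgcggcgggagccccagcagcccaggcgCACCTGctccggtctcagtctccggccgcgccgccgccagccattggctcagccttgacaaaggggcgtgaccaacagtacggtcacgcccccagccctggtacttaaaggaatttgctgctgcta
The capitals are CACCTG, which is CAGGTG read on the other strand, and their first base lies at -126 from the start. Both strands were searched, for CAGGTG and CACCTG, and these letters occurred in 17.2% of 32851 such windows. The windows searched did not cover every chromosome, and Trp63, Sox10, Snai2 and Zeb1 had none among them. Of the 10 genes, 6 had a searched window, and those of Zeb2, Twist1, Twist2, Prrx1 and Tcf21 held neither spelling.

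Zeb1 encodes a zinc-finger and homeodomain repressor of epithelial genes. It read 7.91, 7.80 and 7.80 in knockout glands, against 8.23, 8.43 and 8.35 in wild-type glands. The groups did not overlap, and Zeb1 fell by 0.50 ± 0.11 (limma adjusted p = 0.0276), to 70.6% of wild type. Zeb1 was the smallest of the 5 falls. Its call was lost without any 1 of the 6 arrays, and adjusted p reached 0.0518 to 0.114 over the 9 alternatives in which it was lost.

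ZEB proteins and the miR-200 family repress each other, and miR-205, a microRNA of basal epithelium, also targets Zeb1 and Zeb2. The mature sequences (RefSeq, GRCm38.p6) are shown because the family falls into 2 seed groups, with the seed (bases 2 to 8) in capitals.
mmu-miR-205-5p: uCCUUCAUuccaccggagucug
mmu-miR-200b-3p: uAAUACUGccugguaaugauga
mmu-miR-200c-3p: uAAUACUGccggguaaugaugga
mmu-miR-429-3p: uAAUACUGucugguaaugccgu
mmu-miR-200a-3p: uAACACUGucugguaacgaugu
mmu-miR-141-3p: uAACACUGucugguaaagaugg
miR-200b, miR-200c and miR-429 share the seed AAUACUG, miR-200a and miR-141 share AACACUG, and the seed of miR-205 is CCUUCAU. The arrays read transcripts of these loci, not the mature microRNAs. The Mir205 probe set read 2.44, 2.17 and 2.68 in knockout glands, against 4.29, 3.62 and 3.12 in wild-type glands. It was the 1 of 9 measured microRNA genes that passed, falling by 1.25 ± 0.28 (limma adjusted p = 0.0279), and its knockout mean of 2.43 makes that size a lower bound. Leaving out any 1 of wild type 1, wild type 2, knockout 1 and knockout 2 ended its call. Mir200a, Mir200b, Mir200c and Mir141 had differences of -0.35, -0.59, -0.06 and -0.05 and did not pass. Mir200b read 4.61 on wild type 1 alone and between 2.02 and 2.67 on the other 5 arrays. Of the 9 microRNA genes, 7 had mean levels under 2.71, where a change cannot be read.

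The Twist genes encode basic helix-loop-helix (bHLH) factors of mesenchyme. Twist1 read 7.04, 6.80 and 6.76 in knockout glands, against 7.74, 7.67 and 7.41 in wild-type glands. It fell by 0.74 ± 0.14 to 59.9% of the wild-type level, with no overlap between groups (limma adjusted p = 0.0140). The Twist1 call was lost without wild type 1 (adjusted p = 0.0567) or knockout 2 (0.0564). Twist2, the locus that carries Cre in these knockouts, read 4.12, 3.49 and 3.97 in knockout glands, against 4.77, 3.95 and 4.26 in wild-type glands. Wild type 2 lay under 2 of the knockout arrays, so the groups overlapped. The Twist2 difference was -0.47 ± 0.24 (95% interval -1.03 to 0.10, limma adjusted p = 0.277), and it was -0.24 without wild type 1. Twist2 minus Twist1 differed by 0.27 with overlapping groups (exact permutation p = 0.4). Because the Twist2 locus carries Cre in the knockout group only, this value cannot show whether the paralogues respond differently.

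Prrx1, a homeobox factor of limb and connective tissue mesenchyme, read 8.25, 8.25 and 8.40 in knockout glands, against 9.12, 8.85 and 8.84 in wild-type glands. It fell by 0.64 ± 0.13 (limma adjusted p = 0.0168), to 64.3% of wild type, and the groups did not overlap. Leaving out wild type 1, knockout 1 or knockout 2 ended its call (adjusted p of at most 0.0653). Tcf21, a bHLH factor of visceral mesenchyme and of white adipocyte progenitors, read 1.98, 2.11 and 2.18 in knockout glands, against 1.93, 2.10 and 2.19 in wild-type glands. Every Tcf21 value lay under 2.71, where a change cannot be read, and the difference was 0.02 ± 0.12 (limma adjusted p = 0.950).

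All 13 measured fibroblast markers had negative differences and 6 of them fell, with a median of -0.50. Their summed signal was 14.02 to 14.17 (log2) in knockout glands and 14.41 to 14.69 in wild-type glands. Set against the mean of these markers on the same array, Prrx1 differed by 0.00 between the groups (exact permutation p = 1.0). Zeb1 differed from them by 0.14 (p = 0.4, exact permutation) and Twist1 by -0.10 (p = 0.7, exact permutation), with overlapping groups for all 3 genes. Snai2 minus the fibroblast markers read -0.19, -0.27 and -0.27 in knockout glands, against -0.15, 0.27 and -0.12 in wild-type glands. All knockout arrays were lower (exact permutation p = 0.1, the smallest possible), with knockout 1 close to wild type 1. Adding a constant to all values of an array leaves these differences as they are, and they were not recomputed under repeated quantile normalization. Macrophage markers moved too, with 7 of 12 falling and a median of -0.57, and 5 of 11 adipocyte markers rose, with a median of 0.40. The 7 macrophage falls became 2 without wild type 1 or knockout 2, 3 without wild type 3 and 4 without knockout 1. The 5 adipocyte rises became 3 without knockout 1 and 2 without knockout 2. Of 12 endothelial markers 3 rose (5 without knockout 1), with a median of 0.46. Of 11 lymphocyte markers 3 fell, with a median of -0.48, and that count was 0 without knockout 1 or knockout 2 and 1 without wild type 1 or wild type 3. The part of these cell types in the differences of the transcription factors was not tested.

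**Figure D3:**
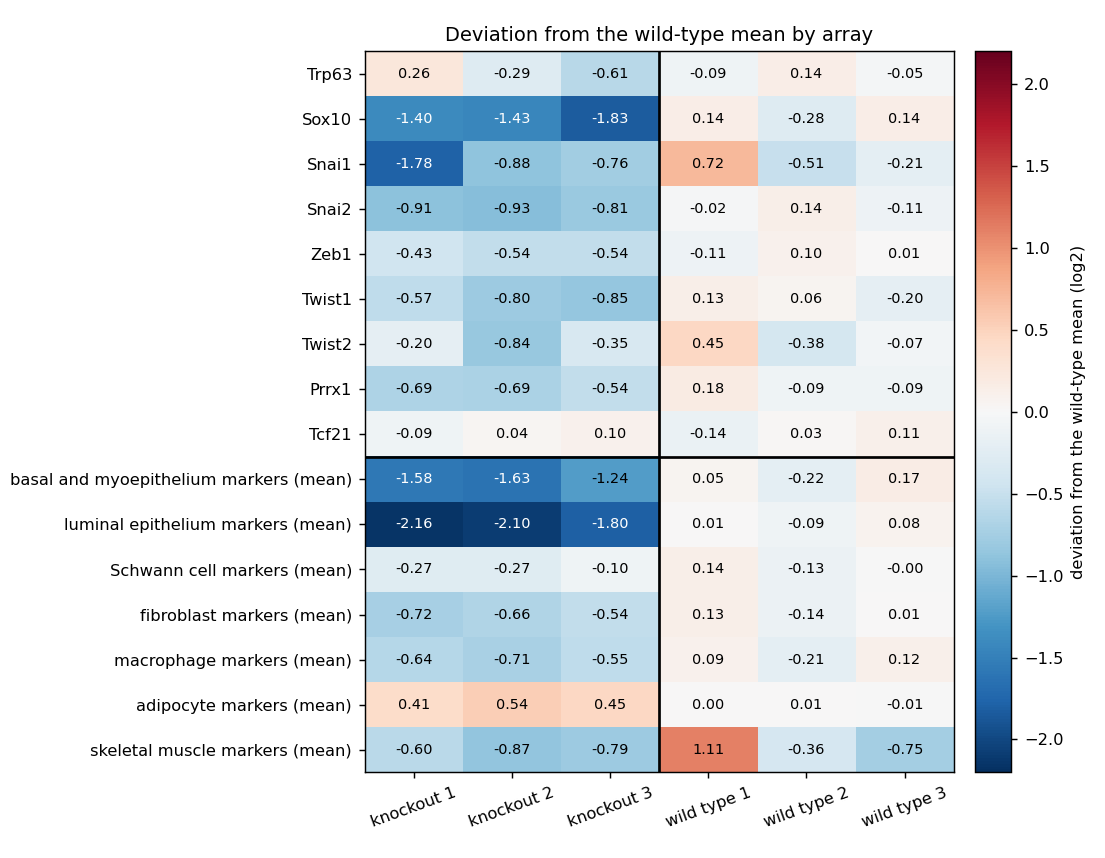
Deviation of each array from the wild-type mean (log2), for the 9 genes (top) and for the mean of each marker list (bottom), knockout arrays left of wild-type arrays. Sox10 lies 1.40 to 1.83 below the wild-type mean in the knockout, Trp63 between -0.61 and 0.26, and the fibroblast markers between -0.72 and -0.54.

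Within groups the factors did not share 1 order of arrays. Knockout 1 was the highest knockout array for Trp63, Sox10, Zeb1, Twist1 and Twist2 and the lowest for Snai1 and Tcf21. Knockout 3 was the lowest for Trp63, Sox10 and Twist1 and the highest for Snai1, Snai2, Prrx1 and Tcf21. Wild type 1 was the highest wild-type array for Snai1, Twist1, Twist2 and Prrx1.

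Genes with the most similar pattern were sought for each of the 5 that fell, among 11090 genes at or above the median level. Similarity was the smallest root mean square difference of array deviations over the 6 arrays. Deviations were taken from each gene's mean over all 6 arrays, so they include the difference between the groups. Genes with a fall of like size are therefore favoured, and a match does not show shared regulation. For Sox10 these were Prss8, Pkp1 and Lama3 (0.11 to 0.13 log2 units). For Snai2 they were Slc9a9, Mapkapk3 and Peg10 (0.06 to 0.07), and for Zeb1 Hif1a, Hspa2 and Nucb2 (0.03 to 0.05). For Twist1 they were Sfrp1, Fgf7 and Maf (0.06 to 0.08), and for Prrx1 Kif21b, Hmox1 and Flrt3 (0.03 to 0.04).

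Twist and Tcf21 proteins pair with E proteins, Id proteins block that pairing, and Snail and ZEB proteins recruit corepressors. Of 13 such genes, 5 fell and 1 rose, with a median of -0.47. The E-protein gene Tcf3 averaged 6.81 ± 0.25 in knockout glands and 7.83 ± 0.32 in wild-type glands (SD, n = 3 each), a fall of 1.02 ± 0.20 (limma adjusted p = 0.0150). The other E-protein genes, Tcf4 and Tcf12, fell by 0.49 ± 0.12 and 0.47 ± 0.11. Among the inhibitors, Id1 read 7.04, 7.67 and 6.76 in knockout glands, against 6.42, 5.52 and 5.83 in wild-type glands, a rise of 1.24 ± 0.29 (adjusted p = 0.0316), whereas Id4 fell by 1.10 ± 0.23. Id2 and Id3 had differences of -0.49 and -0.45 and did not pass. The corepressor demethylase gene Kdm1a fell by 0.53 ± 0.13, while Ctbp2, also a corepressor gene, had a difference of -0.49 ± 0.14 that did not pass (adjusted p = 0.0603), with all knockout arrays below all wild-type arrays. The remaining corepressor genes, Ctbp1, Hdac1, Hdac2 and Sin3a, had differences between -0.08 and 0.04. These calls were near the threshold: the number that fell was 0 without wild type 1, 1 without wild type 2, wild type 3 or knockout 2, 2 without knockout 3 and 3 without knockout 1. With 1 array left out, Id1 passed only without wild type 1 or without knockout 3. On all 6 arrays its call was also lost with every probe set tested and with a replicate block.

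Close relatives of the factors were measured for 13 genes, of which 4 fell and none rose (1 at an unadjusted p under 0.05), with a median of -0.21. Mean levels of 4 of the 13 lay under 2.71, where a change cannot be read. Prrx2, the paralogue of Prrx1, read 2.09, 2.91 and 2.74 in knockout glands, against 5.29, 4.47 and 4.69 in wild-type glands. Its fall of 2.24 ± 0.27 (limma adjusted p = 0.00256) is a lower bound, since the knockout mean of 2.58 lies under 2.71. Both relatives of Sox10 fell: Sox9, a factor of luminal progenitors and of cartilage, by 2.04 ± 0.13 (adjusted p = 0.000267) and Sox8 by 1.24 ± 0.11 (adjusted p = 0.000831). Scx, a bHLH factor of tendon, fell by 0.95 ± 0.19 (adjusted p = 0.0166), a call lost without knockout 2. With arrays centred on their medians 2 of the relatives rose, and 1 rose without knockout 2. Leaving low genes out, either trend model, repeated quantile normalization and a threshold of 0.1 each gave 1 rise too. On the main fit Tcf15 differed by 0.71 ± 0.19 and did not pass (limma adjusted p = 0.0501), with all knockout arrays above all wild-type arrays. Snai3 and the p63 relative Trp73 had differences of -0.21 and 0.06 and did not pass. Every Snai3 value lay under 2.71.

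Other transcription factors of mesenchyme were split. Of 28 measured, 5 fell and 1 rose, and the median of 0.05 was close to that of all genes (0.03). The Hedgehog effector Gli3 fell by 1.57 ± 0.13 (limma adjusted p = 0.000644), Runx1, a runt factor of blood, epithelium and fibroblasts, by 1.53 ± 0.17, and Osr1, a zinc-finger factor of fibroblast progenitors, by 1.07 ± 0.16. Gli2, another Hedgehog effector, fell by 0.54 ± 0.14, and Nfix by 0.43 ± 0.11. Zfp423, a preadipocyte factor, rose by 0.80 ± 0.14 (adjusted p = 0.0113). Leaving out any 1 of wild type 1, wild type 3, knockout 1 and knockout 2 brought the falls to 3. With arrays centred on their medians 3 fell and 4 rose, so the balance of this list depends on the scaling.

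**Figure D4:**
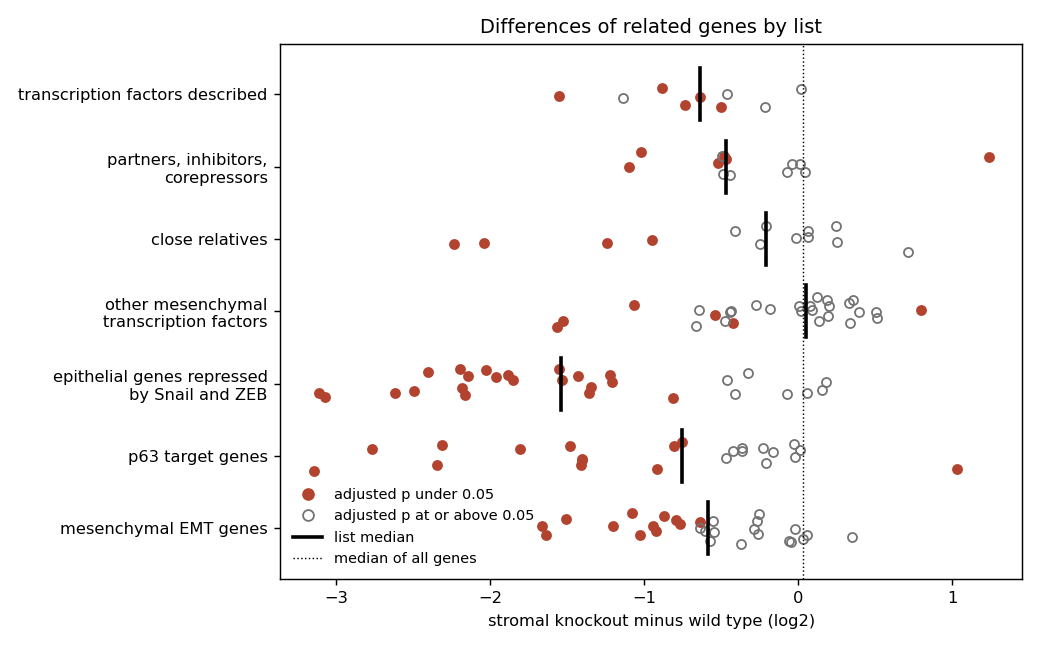
Difference (knockout minus wild type, log2) of each measured gene, by list. Filled red points passed an adjusted p under 0.05, open points did not, and vertical bars mark list medians. The epithelial genes repressed by Snail and ZEB have a median of -1.54, the p63 targets -0.76 and the mesenchymal EMT genes -0.59, beside 0.03 for all genes (dotted line).

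Targets of these factors were read in 3 lists. Of 28 epithelial genes that Snail and ZEB proteins repress, 21 fell and none rose (0 also at an unadjusted p under 0.05), with a median of -1.54. Snai2 and Zeb1 themselves fell as well, and any link between their falls and those of the targets was not tested. The largest falls were in the luminal keratins Krt19 (-3.11 ± 0.26), Krt8 (-3.08 ± 0.24) and Krt18 (-2.62 ± 0.13) and in the tight junction gene Cldn4 (-2.50 ± 0.19). Cdh1, which encodes E-cadherin and is the classical Snail target, read 5.93, 6.22 and 6.32 in knockout glands, against 8.36, 8.28 and 8.32 in wild-type glands (limma adjusted p = 0.000212). It is named as the classical target and was added after its values had been seen. Of these genes, Krt8, Krt18, Krt19 and Epcam are also in the luminal marker list. The others are epithelial genes too, and the luminal and basal markers had medians of -1.93 and -1.40. The part of epithelial content in these falls was not tested.

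Krt8, Krt18 and Cldn4 had the largest falls among the genes of this list with a promoter window, so their 250 bases before the start are shown, with the E-box in capitals as for Snai1. They are chr15:102004343-102004592 (minus strand), chr15:102027966-102028215 (plus strand) and chr5:134946935-134947184 (minus strand) in GRCm38.p6.
Krt8: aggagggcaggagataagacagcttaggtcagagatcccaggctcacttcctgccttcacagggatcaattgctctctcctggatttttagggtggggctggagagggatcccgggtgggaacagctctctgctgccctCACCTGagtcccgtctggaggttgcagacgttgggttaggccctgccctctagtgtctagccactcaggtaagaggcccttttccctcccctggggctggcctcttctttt
Krt18: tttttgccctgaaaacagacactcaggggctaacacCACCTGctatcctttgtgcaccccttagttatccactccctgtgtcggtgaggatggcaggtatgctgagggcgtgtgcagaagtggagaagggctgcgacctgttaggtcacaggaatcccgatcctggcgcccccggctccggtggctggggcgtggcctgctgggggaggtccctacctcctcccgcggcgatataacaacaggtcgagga
Cldn4: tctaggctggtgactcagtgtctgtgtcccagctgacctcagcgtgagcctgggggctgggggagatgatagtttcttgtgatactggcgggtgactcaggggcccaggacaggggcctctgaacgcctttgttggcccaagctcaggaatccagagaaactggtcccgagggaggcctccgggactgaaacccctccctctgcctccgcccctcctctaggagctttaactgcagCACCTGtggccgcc
Each holds CACCTG once, with its first base at -111 in Krt8, -214 in Krt18 and -14 in Cldn4. The 3 were chosen by their falls and not by the motif. Of 28 measured genes of this list, 17 had a window among those searched, which did not cover every chromosome. Of the 17, 12 held either spelling in at least 1 window, beside 19.4% of all 27025 genes with such a window. With so many genes lacking a window this count is void as a statement about the list, whose genes are known as targets of E-box repressors, and no enrichment was tested. A match of letters does not show binding.

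Of 23 measured p63 target genes of basal epithelium, 12 fell and 1 rose, with a median of -0.76, while Trp63 did not pass. Krt14 fell by 3.15 ± 0.18 and Krt15 fell by 2.77 ± 0.41, both lower bounds, with knockout means of 2.35 and 2.66. The hemidesmosome collagen gene Col17a1 read 4.03, 3.84 and 4.12 in knockout glands, against 6.48, 6.04 and 6.52 in wild-type glands, a fall of 2.35 ± 0.16 (limma adjusted p = 0.000321). Trim29, a gene of basal epithelia, fell by 2.31 ± 0.24. The rise was Cdkn1a, which encodes the cell cycle inhibitor p21 and responds to p53 as well (1.03 ± 0.19, adjusted p = 0.0122). Of the 23 genes, 5 are also in the basal marker list, whose median was -1.40, and 2 had mean levels under 2.71. The part of epithelial content in these falls was not tested.

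Of 28 mesenchymal genes that rise in EMT, 12 fell and none rose (0 also at an unadjusted p under 0.05), with a median of -0.59. The matrix protein gene Tnc fell by 1.66 ± 0.28, the surface marker gene Thy1 by 1.64 ± 0.13, the mesenchymal cadherin gene Cdh11 by 1.51 ± 0.23 and the hyaluronan receptor gene Cd44 by 1.20 ± 0.18 (limma adjusted p 0.000583 to 0.00923). Cdh11 read 7.14, 7.67 and 8.10 in knockout glands, against 9.26, 9.14 and 9.04 in wild-type glands, with no overlap. Vim, the vimentin gene, differed by -0.05 ± 0.11 (adjusted p = 0.822), and Cdh2, the N-cadherin gene, by 0.35 and did not pass. Of the 28 genes, 9 are also in the fibroblast marker list.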

How the data were processed

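The 6 arrays were made from 400 ng of total RNA each, per the labels' protocols. The authors deposited log2 signals, 1 per probe set and array; the submitters' processing notes name RMA and limma, with no version. The log base was taken as 2 from RMA and the range of values. The sources used here give no chip definition or probe filter. Of 41345 probe sets, 23521 carry 1 symbol in the platform annotation and were reduced to 22180 genes by the highest mean over the 6 arrays. The deposited columns were all matched to samples by their labels. The replicates are named biological in the labels.

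Differences and their errors came from limma 3.58.1 (R 4.3.3, lmFit, eBayes, no trend), after testing on simulated data. Benjamini-Hochberg adjustment ran over all genes, with a threshold of 0.05. The simulation recovered 0 of 70 genes changed by 0.5 log2 units, 54.7% of those changed by 1.0 and 90.9% of those changed by 2.0. It changed 200 genes, while 2717 passed in the data, so these shares need not hold there. A gene that did not pass is not shown to be unchanged. Single values were compared by an exact two-sided permutation test. The number of arrays limits the precision. The genes, lists and tests were chosen with earlier results of these data known. Beside the 10 factors and Mmp14, genes are named as the up to 4 largest rises and falls past the threshold in each list of partners, relatives or targets, and as the 3 most similar genes of each factor that fell. Cdh1, Nfix, Tcf12, Tcf15, Vim, Cdh2, Snai3, Trp73, Id2, Id3, Ctbp1, Ctbp2, Hdac1, Hdac2, Sin3a, the miR-200 genes and the named Schwann cell markers were added once their values were known. Alternatives were a filter on low genes, 2 trend models, array weights, 2 scalings, other handling of probe sets, a replicate block, a threshold of 0.1 and leaving out each array.

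Sequences are from RefSeq tables of GRCm38.p6.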

Additional observations from a re-analysis of the deposited data

How the results depend on the processing

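Of the 5 genes that fell, Sox10 and Snai2 passed under all 16 alternatives, with differences of -1.69 to -1.37 and -0.94 to -0.70. Twist1 failed under 2 alternatives, Prrx1 under 5 and Zeb1 under 9. The count of falls was 3 with every probe set tested, which adjusts over more tests, and 3 with the replicate block, and it ranged from 2 to 4 with 1 array left out; no gene of the 9 rose under any alternative. With a threshold of 0.1 the count was 6, Snai1 being added. The labels do not say whether replicate numbers pair the mice. Deviations from the group means correlated at -0.03, -0.05 and -0.03 between same-numbered arrays. With 3 arrays a group this cannot exclude pairing, and under the block Zeb1 and Prrx1 did not pass.

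Tcf21 was -0.0413 with repeated quantile normalization and -0.0545 (without wild type 1) to 0.0715 with 1 array left out, turning negative without wild type 1 or knockout 3, always under the readable level. Of the within-array values, 4 changed sign with 1 array left out. Sox10 less basal markers ranged from -0.2085 to 0.1896, turning without knockout 3. Twist1 less fibroblast markers ranged from -0.2245 to 0.0062, turning without knockout 3 or wild type 2 (0.0023). Prrx1 less fibroblast markers ranged from -0.0475 to 0.0320, turning without wild type 3 or knockout 1. Snai2 less Snai1 ranged from -0.1173 to 0.5785, turning without wild type 1 or knockout 1 (-0.0533). These were added after seeing the data. Over all genes, 2717 passed, against 4333 with centred arrays, 1331 with every probe set tested and 1490 to 2304 with 1 array left out. Falls among the partner genes ranged from 0 to 7, among other mesenchymal factors from 3 to 6 (rises from 1 to 4), among close relatives from 3 to 4 (rises from 0 to 2), among fibroblast markers from 4 to 10, among macrophage markers from 2 to 9 and among lymphocyte markers from 0 to 4, and rises among adipocyte markers from 2 to 7 and among endothelial markers from 2 to 9. Counts for epithelial targets (19 to 21), p63 targets (9 to 13) and mesenchymal EMT genes (10 to 17) moved by at most 1.5 times. The cause of these shifts was not tested.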
